A study of Mus musculus with 2 samples.

Results

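The mouse liver was examined here through 6 genes of nitrogen and amino acid breakdown, Ass1, Asl, Arg1, Hal, Oat and Upb1, chosen by name from the 500 genes of the panel. Their transcripts were counted by MERFISH, an imaging method that decodes single RNA molecules in place through a barcode given to each gene, and 50 blank barcodes that belong to no gene measure false decoding. The data are 2 liver sections of 1 label group, tagged 2d, cut from snap-frozen mouse liver. The meaning of that tag is not explained in the labels. The series' design text speaks of mice with liver metastases given TA33 or TA33.Combo, but no label assigns a section to a treatment, so no treatment was assigned here. The sources used here state neither strain, age nor sex, nor whether the sections come from separate animals. Every p-value below therefore weighs a difference between cell groups or bins only against how far it varied between these sections. That variation may be technical. The sections are called section 1 and section 2 after their replicate numbers.

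The urea cycle turns ammonia into urea in the liver, and its enzymes are known to be concentrated in the periportal hepatocytes that meet blood first. Around the central vein, hepatocytes are known to capture remaining ammonia with glutamine synthetase, encoded by Glul. Ass1 joins citrulline and aspartate to argininosuccinate, Asl splits that into arginine and fumarate, and Arg1 releases urea and ornithine from arginine. Oat encodes ornithine aminotransferase, which moves the amino group of ornithine and is known as a pericentral enzyme. Hal encodes histidine ammonia-lyase, the first enzyme of histidine breakdown, and Upb1 encodes beta-ureidopropionase, the last enzyme of pyrimidine breakdown. Of 74 further genes of urea cycle, ammonia and amino acid metabolism that were listed, the panel held 1, Glul. The rest of the pathway, among it Cps1 and Otc, was not analysed here.

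The 6 genes lie on 4 mouse chromosomes in the RefSeq annotation of GRCm38.p6. Ass1 spans chr2:31470270-31520670, Asl chr5:130011258-130024381 and Oat chr7:132557475-132576398. Arg1, at chr10:24915207-24927470, Upb1, at chr10:75406911-75441679, and Hal, at chr10:93488768-93516761, share chromosome 10. Promoter sequence was matched for 4 of the 6, Ass1, Hal, Oat and Upb1. The 250 bases before the start of Hal, Oat and Ass1, from RefSeq on GRCm38.p6 and read 5′ to 3′ on the strand of the gene, are printed because Hal and Oat had the largest fitted changes, in opposite directions, by the landmark counts of neighbouring cells (a comparison added after the others had been seen, in which Hal changed by 0.02 in section 1), and because Ass1 has the most counts. Capitals mark matches, on either strand, to 3 short motifs, where overlapping matches run together. The first motif is the TATA box, searched as TATAA. The second is the CCAAT box, searched by the letters of its name. The third is CTTTGA, the core of the site that TCF/LEF factors bind.
Hal: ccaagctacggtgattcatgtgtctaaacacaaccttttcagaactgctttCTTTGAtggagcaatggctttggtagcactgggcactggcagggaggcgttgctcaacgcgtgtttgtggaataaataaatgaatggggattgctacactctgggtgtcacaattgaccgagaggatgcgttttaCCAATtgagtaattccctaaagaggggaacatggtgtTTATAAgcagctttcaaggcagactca
Oat: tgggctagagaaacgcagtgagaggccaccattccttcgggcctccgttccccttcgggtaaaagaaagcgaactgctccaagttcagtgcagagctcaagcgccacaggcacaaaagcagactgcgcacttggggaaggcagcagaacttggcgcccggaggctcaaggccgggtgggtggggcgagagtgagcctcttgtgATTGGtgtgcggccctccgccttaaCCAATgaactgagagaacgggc
Ass1: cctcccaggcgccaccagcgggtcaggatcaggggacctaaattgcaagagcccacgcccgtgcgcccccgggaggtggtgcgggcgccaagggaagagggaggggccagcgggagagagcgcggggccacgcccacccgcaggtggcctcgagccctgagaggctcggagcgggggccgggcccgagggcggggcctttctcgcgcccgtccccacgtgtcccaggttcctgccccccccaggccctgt
The Hal sequence is chr10:93488518-93488767 on the plus strand, and it held 2 overlapping TATAA matches, 1 CCAAT match and 1 CTTTGA match. The Oat sequence is chr7:132576399-132576648 on the minus strand, and it held 2 CCAAT matches and none of the others. The Ass1 sequence is chr2:31470020-31470269 on the plus strand, has a GC content of 75.6%, against 45.6% for Hal and 60.0% for Oat, and held no match. Among 32851 promoters of the same length, 22.78% held TATAA, 33.85% held CCAAT and 13.83% held CTTTGA on either strand. These matches describe letters in a window and say nothing of a factor's binding.

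Segmentation gave 26037 cells in section 1, holding 428386 counts of genes, and 85929 cells in section 2, holding 475382. Cells with at least 10 gene counts and a volume of at least 50 (9209 and 16290) were kept, with a median of 27 and 15 counts, and no cell identifier occurred in both sections. The share of all counts that fell on blanks was 0.910% in section 1, against 0.390% in the other section. A kept cell was assigned to the non-hepatocyte marker list with the most counts, at least 2, and was called hepatocyte-like where it held at least 2 counts of 12 hepatocyte markers (such as Hp, Fgb and Apob) and under 2 of every other list. This gave 5116 hepatocyte-like cells in section 1 (55.6% of kept cells) and 13213 in section 2 (81.1%). The hepatocyte markers took 3158 and 3473 of every 10000 gene counts in them. Levels below are counts per 10000 gene counts of the summed cells, with exact 95% Poisson intervals that cover counting error only. Since detection differs between the probe sets of a MERFISH panel, levels are compared between cells for 1 gene and not between genes.

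In hepatocyte-like cells Ass1 had 618 counts in section 1, a level of 34.5 (31.8 to 37.3), and 1388 counts in section 2, a level of 57.3 (54.3 to 60.4). Asl had levels of 13.3 (11.6 to 15.1) and 23.2 (21.3 to 25.2), and Arg1 levels of 15.9 (14.1 to 17.9) and 22.01 (20.2 to 24.0). For all 3 urea cycle genes section 2 was the higher, with intervals that do not overlap. Upb1 stood at 29.3 (26.9 to 32.0) and 50.8 (48.0 to 53.7), and Hal at 2.90 (2.17 to 3.803) and 6.57 (5.58 to 7.67), again higher in section 2. Oat stood at 5.08 (4.09 to 6.23) and 5.45 (4.56 to 6.46), with overlapping intervals. The sections are replicates of 1 group, so these gaps are spread between replicates and were not tested.

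Ass1, Asl, Arg1 and Upb1 lay above every blank barcode in the same cells of both sections, Asl closest with 238 counts against 137 for the highest blank in section 1. Hal and Oat did not. Hal had 52 counts in section 1, where 7 of the 50 blanks had as many or more, and 159 in section 2, where 1 blank did. Oat had 91 and 132 counts, and 5 blanks and 1 blank reached it. Against the mean blank, Hal was 1.80 times higher in section 1 and 14.0 times in section 2, and Oat 3.15 and 11.6 times.

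Counts per cell were sparse. In 73.7% of hepatocyte-like cells of section 1 and 75.0% of section 2 none of the 6 genes had a count, and 4.85% and 3.35% had counts of more than 1 of them. Ass1 was counted in 10.3% of hepatocyte-like cells of section 1 (exact 95% interval 9.46 to 11.2%) and 9.73% of section 2 (9.23 to 10.3%). Erythroid-like cells, which should lack a urea cycle, had Ass1 in 8.94% (7.26 to 10.9%) and 8.61% (6.11 to 11.7%), at medians of 40.5 and 19 counts per cell against 24 and 15 in hepatocyte-like cells. For Ass1 the share of cells with a count was therefore close in these 2 cell groups, which differ in depth. In section 1 Arg1 was counted in 5.3% of hepatocyte-like and 3.5% of erythroid-like cells. Upb1 was counted in 9.0% and 6.7% there, and Oat in 1.7% and 3.6%. The source of the counts in erythroid-like cells was not tested, and levels per gene count are used from here on. Of the decoded transcripts of Ass1, 42.5% and 34.1% lay outside any segmented cell, against 40.1% and 34.4% over all genes.

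Summed over cells, 5 of the 6 genes were higher in hepatocyte-like cells than in the mean of 6 other groups (endothelial-, macrophage/Kupffer-, monocyte/neutrophil-, erythroid-, stellate/mesenchymal- and B-lineage-like, each with at least 50 cells in both sections). The counts were summed per section and group (14 sums) and tested with edgeR's quasi-likelihood test, with section as a block, all marker genes left out and Benjamini-Hochberg adjustment over all genes tested, and a gene was called at an adjusted p under 0.05. Of 358 genes tested 19% were called higher (6.7% lower, 25.7% in either direction), and the median log2 change was 1.09 over the 6 genes and 0.13 over all genes tested. The totals in this fit leave out the marker genes, and each group has the same weight. Levels divide by all gene counts, so the fitted changes need not match ratios of levels. Median counts per cell in section 1 were 24 in hepatocyte-like cells and 31 to 59 in the 6 other groups. In section 2 they were 15 against 17 to 19. A cell with 2 counts of another list was not called hepatocyte-like whatever its hepatocyte counts, and deeper cells reach 2 counts more easily. The effect of this rule on the changes was not tested.

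Arg1 had a log2 change of 1.37 ± 0.31 (SE, adjusted p = 0.000556), or 2.58-fold. Its level in section 1 was 15.9 in hepatocyte-like cells and between 4.02 (stellate/mesenchymal-like) and 8.67 (B-lineage-like) in the other groups. In section 2 it was 22.01 against 8.97 to 18.4, so none of the 6 other groups reached the hepatocyte-like level in either section. In section 2, though, the hepatocyte-like interval (20.2 to 24.0) overlapped those of all but stellate/mesenchymal-like cells (4.30 to 16.5). The overlapping groups had 6 to 12 counts each. Groups with under 50 cells in a section were not compared. Of these, cholangiocyte-like and T/NK-like cells in section 1 had 23.3 and 19.5, on 11 and 7 counts. Both lay above the hepatocyte-like level, with wide intervals that overlapped it. Megakaryocyte-like cells had 6.05 there, on 1 count. In section 2 these groups had 1 or 2 counts each. Upb1 changed by 1.35 ± 0.27 (adjusted p = 7.23e-05), from 29.3 against 8.77 to 15.3 in section 1. In section 2 Upb1 stood at 50.8 in hepatocyte-like cells and 50.01 in B-lineage-like cells, where it had 19 counts, and at 17.0 to 38.8 in the other 5 groups.

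Ass1 changed by 0.98 ± 0.26 (adjusted p = 0.00306). Against its hepatocyte-like level of 34.5 in section 1, monocyte/neutrophil-like cells had 31.9 (25.7 to 39.0), endothelial-like cells 27.2 and stellate/mesenchymal-like cells 15.7. In section 2, against 57.3, monocyte/neutrophil-like cells had 54.1 (34.3 to 81.1), macrophage/Kupffer-like cells 51.6 (34.8 to 73.6), endothelial-like cells 50.9 (31.5 to 77.8) and stellate/mesenchymal-like cells 19.7. The intervals of monocyte/neutrophil-like and hepatocyte-like cells overlapped in both sections, and those of stellate/mesenchymal-like cells lay below in both. Asl changed by 0.97 ± 0.32 (adjusted p = 0.0160) and Hal by 1.21 ± 0.40 (adjusted p = 0.0165), Hal on 29 and 13 counts in all 6 other groups together.

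Oat differed from the rest, with a log2 change of 0.04 ± 0.38 (adjusted p = 0.93). Pooled over the 6 other groups its level was 1.497 times the hepatocyte-like level in section 1 and 1.23 times in section 2. Among these groups, stellate/mesenchymal-like cells had the highest level in both, 12.1 (8.14 to 17.2) and 9.87 (4.93 to 17.7). Hepatocyte-like cells had 5.08 and 5.45, and only the first pair of intervals is apart. Monocyte/neutrophil-like cells had 7.12 in section 1 and 0 counts in section 2, and within single sections the log2 difference was -0.21 and 0.94, with no test. These differences give each group the same weight and enter a group with 0 counts through a prior count of 2, so the value in section 2 has the opposite sign to its pooled ratio and gives no direction for Oat there.

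The other groups also held counts of the hepatocyte markers. The 12 hepatocyte markers stood at 0.585 of their hepatocyte-like level over the 6 other groups in section 1 and at 0.524 in section 2. The same ratio was 0.635 and 0.648 for Ass1, 0.602 and 0.691 for Asl, 0.401 and 0.586 for Arg1, 0.559 and 0.511 for Hal and 0.449 and 0.544 for Upb1. The part of hepatocyte RNA in the levels of the other groups was not tested. Without cells that had a hepatocyte-like cell within 15 µm, the changes were larger for the 5 called genes, from 1.39 for Ass1 to 1.91 for Arg1, and all 5 were called. With cell volume in place of counts as the offset only Arg1 and Upb1 were called, and without the block none.

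**Figure D1:**
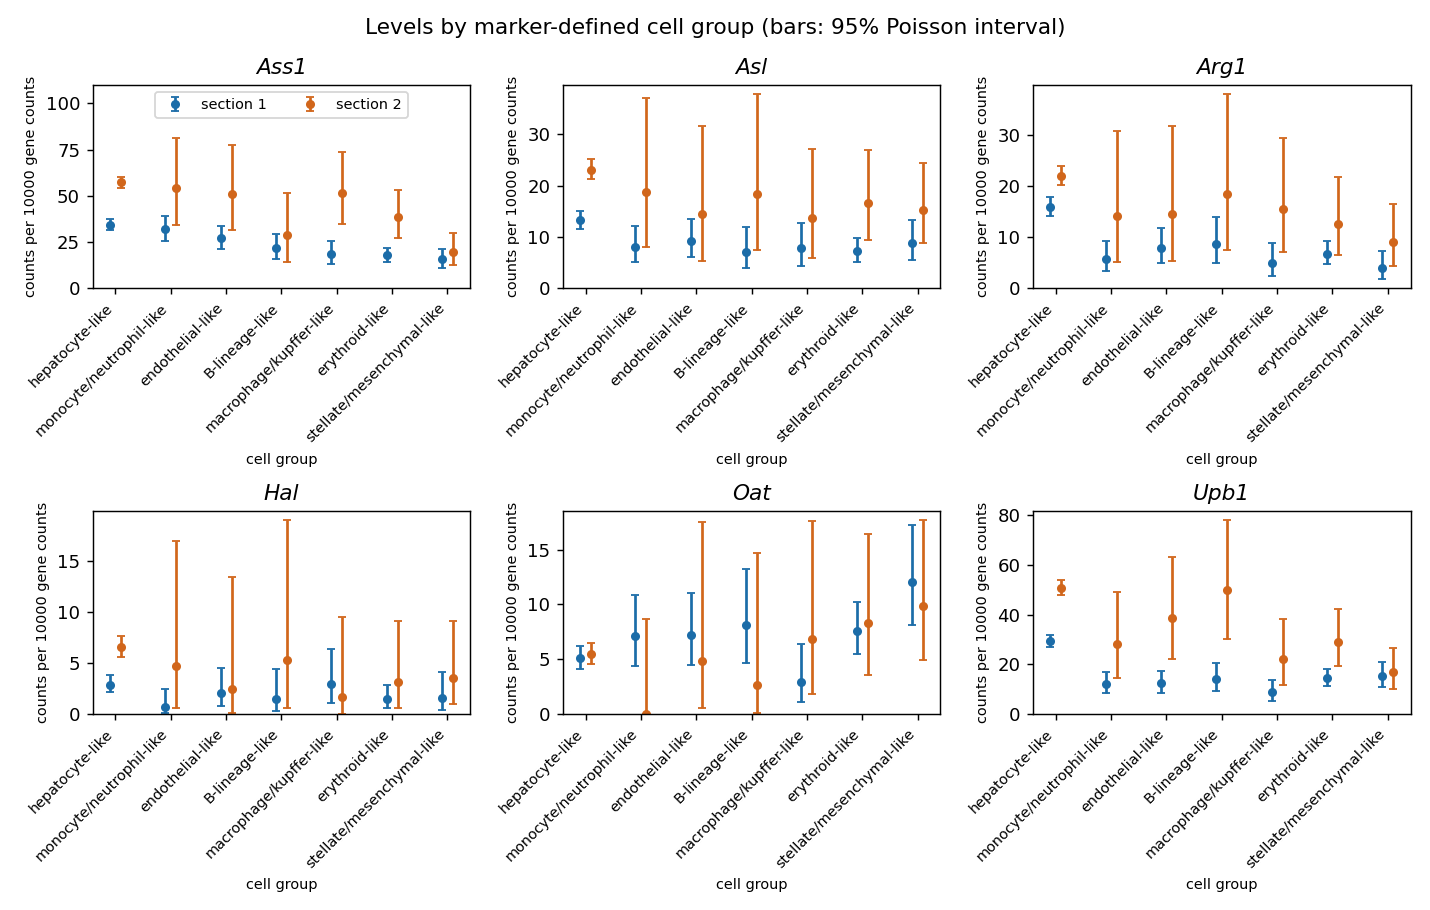
Levels of the 6 genes (counts per 10000 gene counts, linear axis from 0) in 7 marker-defined cell groups, one point per section with its exact 95% Poisson interval. Among these 7 groups Arg1 was highest in hepatocyte-like cells in both sections, while Oat was highest in stellate/mesenchymal-like cells, at 12.1 and 9.87.

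Position in the lobule was first approximated by the distance from Glul-high cells, those with at least 3 Glul counts. Section 1 had 162 of them and section 2 had 73. Only 55 of the 162 and 54 of the 73 were hepatocyte-like by their markers, and 23 of the 162 were stellate/mesenchymal-like. The hepatocyte-like cells outside them were split into 3 equal bins of distance in each section. The near bin reached to 96.2 and 152 µm and the far bin began at 194 and 303 µm, where the unit is taken to be µm since the headers name none.

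On this axis none of the 6 genes was called between the near and the far bin. Of 346 genes tested, 0.867% were called in either direction (3 genes, and 22 at an unadjusted p under 0.05) and 0.289% higher near, and Cyp2e1, a pericentral cytochrome P450, was that gene, with a log2 change of 0.59 ± 0.16 (adjusted p = 0.0255). Among the position genes listed, 1 of 9 pericentral genes and 0 of 5 periportal genes passed. Arg1 stood at 13.8 near and 19.4 far in section 1, and at 19.7 near and 23.7 far in section 2, with a log2 change of -0.29 ± 0.21 (adjusted p = 0.868). Oat stood at 6.15 near and 3.72 far in section 1 but at 5.21 near and 5.40 far in section 2, and its change over both sections was 0.34 ± 0.30 (adjusted p = 0.934). The changes of the other 4 genes lay between -0.09 (Asl) and 0.08 (Upb1), with SEs of 0.15 to 0.31. In section 1 all blanks together stood at 64.4 per 10000 near and 105 far, and markers of other cell types at 198 and 248. Median counts per cell there were 28 and 21. In section 2 blanks stood at 23.6 and 24.8, these markers at 164 and 179, and median counts at 16 and 15. The part of this background in the levels was not tested.

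Narrower bins of distance are given without a test. In section 1 Arg1 was at 7.59 (3.47 to 14.4) within 25 µm, on 9 counts, at 19.7 (13.5 to 27.8) between 25 and 50 µm, at 12.9 (9.60 to 17.0) between 50 and 100 µm, and at 22.5 (16.3 to 30.3) beyond 300 µm. In section 2 it was at 13.5 (5.83 to 26.6) within 25 µm, on 8 counts, at 11.3 (6.32 to 18.6) between 25 and 50 µm, and at 23.8 (20 to 28.01) between 100 and 200 µm. Ass1 in section 2 was at 35.4 (21.9 to 54.2) within 25 µm and at 65.9 (58.9 to 73.5) between 200 and 300 µm, its highest bin. In section 1 the same distances had 33.7 and 36.8. Beyond 300 µm Ass1 was at 57.9 in section 2 but at 24.6 (18.1 to 32.7) in section 1. Oat in section 1 was at 9.28 (4.63 to 16.6) within 25 µm and at 2.62 (0.850 to 6.11) beyond 300 µm. In section 2 the same distances had 8.44 (2.74 to 19.7) and 5.56 (4.04 to 7.47), with overlapping intervals. Neither Arg1 nor Oat changed in 1 direction through every bin in both sections. The axis itself ordered position genes in part. Between cells within 25 µm and beyond 300 µm, Cyp2e1 fell from 57.3 to 26.2 in section 1 and from 70.9 to 33.1 in section 2. Periportal Cyp2f2 rose from 3.37 to 18.7 in section 2, below its 24.5 between 200 and 300 µm. In section 1 it stood at 40.5 and 35.6. Far cells were thus not shown to be the periportal end of the lobule, so no call on this axis does not mean no change with position.

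**Figure D2:**
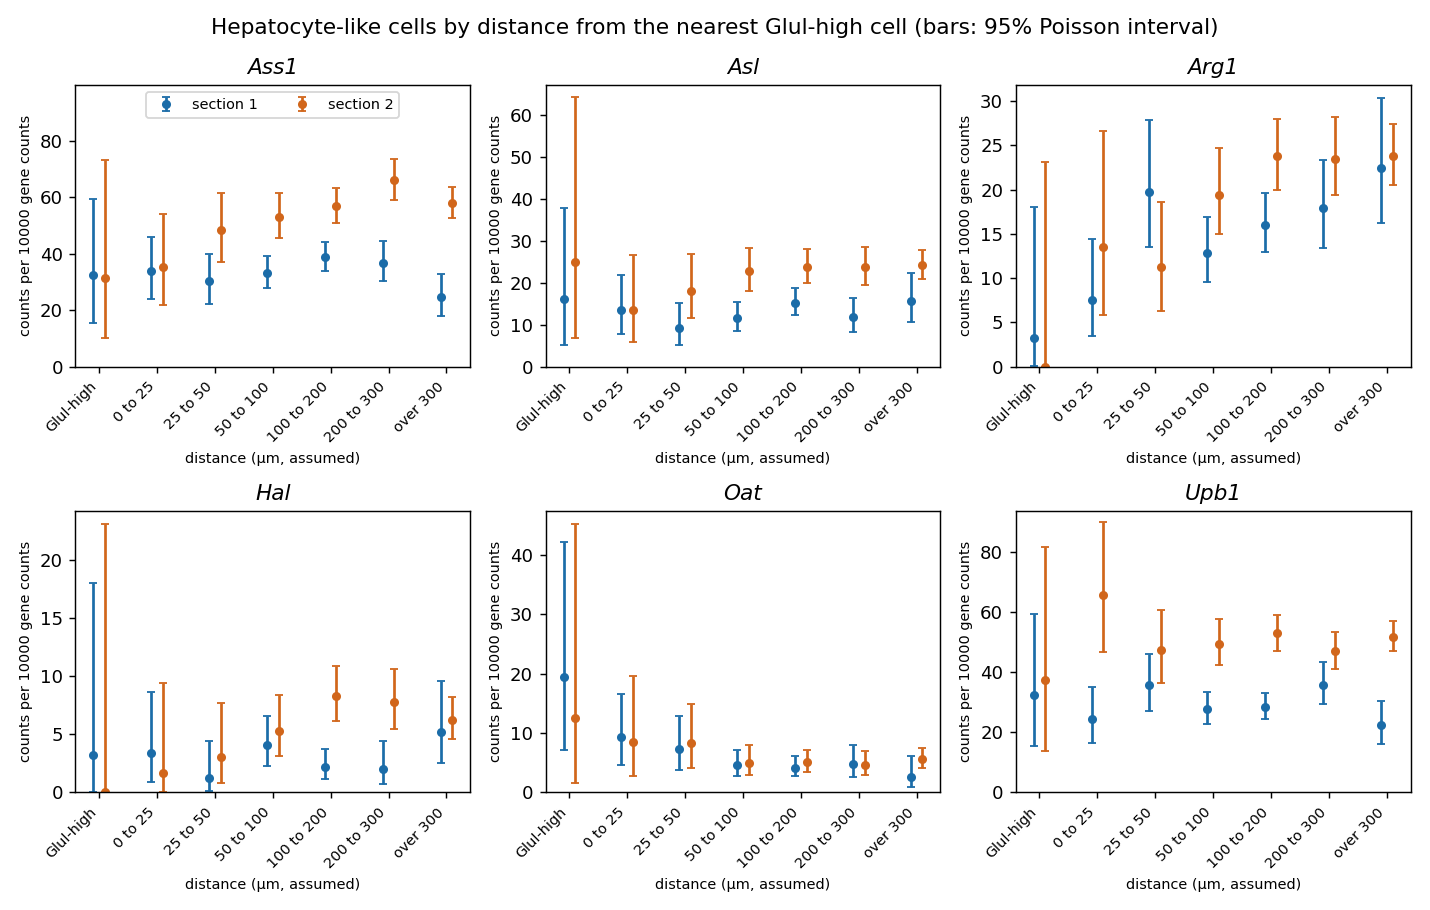
Levels of the 6 genes (counts per 10000 gene counts, linear axis from 0) in hepatocyte-like cells by distance in µm from the nearest Glul-high cell, one point per section with its exact 95% Poisson interval. In Glul-high cells Arg1 had 1 count in section 1 and 0 in section 2, and the wide intervals there reflect 55 and 54 cells.

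Within the Glul-high hepatocyte-like cells themselves, Arg1 had 1 count in section 1 and 0 in section 2. From its level in the far bin of the same section, 8.96 counts would have been counted over both, a ratio of 0.112 with an exact Poisson interval of 0.00283 to 0.622. In edgeR's fit of Glul-high against far cells, where 2.89% of 346 genes were called (2.02% lower), Arg1 was the only one of the 6 called (adjusted p = 0.0270). That call rests on 1 count and was lost in 10 of the 15 alternative fits tried. Oat had 6 and 2 counts, 8 against 1.84 expected, a ratio of 4.35 (1.88 to 8.56), and its log2 change of 1.61 ± 0.68 did not pass (adjusted p = 0.295). For Ass1, Asl and Upb1 the ratios were 0.872 (0.488 to 1.44), 1.24 (0.569 to 2.36) and 1.01 (0.578 to 1.64), intervals that hold 1. Hal had 1 count in all, which allows ratios from 0.0135 to 2.97. Median log2 change over all genes tested was -0.45 in this fit. Glul-high hepatocyte-like cells had median counts of 47 against 21 in far cells in section 1, and 23 against 15 in section 2. Their median volumes were 1237 against 1015 and 1576 against 1280. The effect of this difference in depth and size on the ratios was not tested.

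From the periportal side, distance from Cyp2f2-high cells (at least 3 counts of Cyp2f2, a periportal cytochrome P450) gave no called gene at all. Of 346 genes 0% were called by edgeR, 20 at an unadjusted p under 0.05, and the 6 genes had log2 changes from -0.26 (Oat) to 0.25 (Ass1), SEs 0.21 to 0.31. Section 1 held 41 such cells and section 2 held 5, so in section 2 the near bin reached 632 µm.

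After these distance comparisons had been seen to call none of the 6 genes between near and far cells, a further measure of position was added, built from the counts of neighbouring cells. It was thus chosen with results known, and results known earlier had already shown Arg1, Hal and Oat differing with a position score, so it is not independent evidence. For each hepatocyte-like cell with at least 5 hepatocyte-like neighbours within 50 µm (3241 and 11811 cells), the Glul, Cyp2e1 and Gulo counts of the neighbours were set against their Cyp2f2, Pck1 and Hsd17b13 counts. The cell's own counts were left out, and the cells of each section were split into 3 equal bins, called here the periportal side, the middle and the pericentral side. The 6 landmarks were left out of the test, and none of the 6 genes studied is a landmark.

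On this axis Arg1, Ass1, Asl and Hal were lower and Oat higher on the pericentral side, while Upb1 was not called. Of 304 genes tested, 5.59% were called lower and 6.25% higher (11.8% in either direction), and the median log2 change over all of them was -0.03. The 6 tested pericentral genes that were not landmarks were all called higher, and neither of the 2 tested periportal genes was called. The median of the 6 genes studied was -0.68.

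Arg1 levels from the periportal side through the middle to the pericentral side were 23.7, 16.5 and 11.3 in section 1 and 29.9, 21.4 and 15.9 in section 2. They were lower in each step in both sections, and the outer intervals do not overlap in either. The log2 change, pericentral minus periportal, was -0.997 ± 0.176 (SE, edgeR adjusted p = 1.09e-06), or 0.501-fold, and it was -1.13 and -0.87 within section 1 and section 2.

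Ass1, which feeds the cycle with argininosuccinate, had levels of 40.1, 34.3 and 25.02 in section 1 and of 70.2, 56.0 and 46.6 in section 2. Both sections fell in the same order, and the outer intervals are apart in both. Its log2 change was -0.65 ± 0.12 (adjusted p = 2.81e-06). Asl, the next enzyme, had 21.9, 13.0 and 11.9 in section 1 and 28.4, 22.6 and 19.2 in section 2, with a log2 change of -0.71 ± 0.17 (adjusted p = 0.00109). In section 1 most of the fall in Asl lay between the periportal side and the middle, where the intervals (17.6 to 27.1 and 9.56 to 17.2) do not overlap, whereas the middle and the pericentral side overlapped.

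Oat, the ornithine aminotransferase, ran the other way, with levels of 3.02, 3.51 and 8.64 in section 1 and of 2.94, 4.95 and 8.37 in section 2. Its outer intervals do not overlap in either section. The counts behind them were 12, 13 and 29, and 22, 37 and 60. The log2 change was 1.47 ± 0.32 (adjusted p = 0.000189), or 2.77-fold, and 1.27 and 1.46 within the sections.

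Hal was called over both sections, with a log2 change of -1.39 ± 0.33 (adjusted p = 0.000539), but that value came from section 2. There its levels were 10.9 (8.70 to 13.6), 6.02 and 2.79 (1.70 to 4.31), on 82, 45 and 20 counts. In section 1 they were 3.53, 2.16 and 3.87 on 14, 8 and 13 counts, with intervals that all overlap, and the change was 0.02 in section 1 against -1.85 in section 2. In section 1 Hal also lay among the blank barcodes, as given above, and the difference between the sections was not tested. Upb1 had 24.95, 29.7 and 28.6 in section 1 and 47.9, 48.1 and 51.6 in section 2, with a log2 change of 0.10 ± 0.13 (adjusted p = 0.769).

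**Figure D3:**
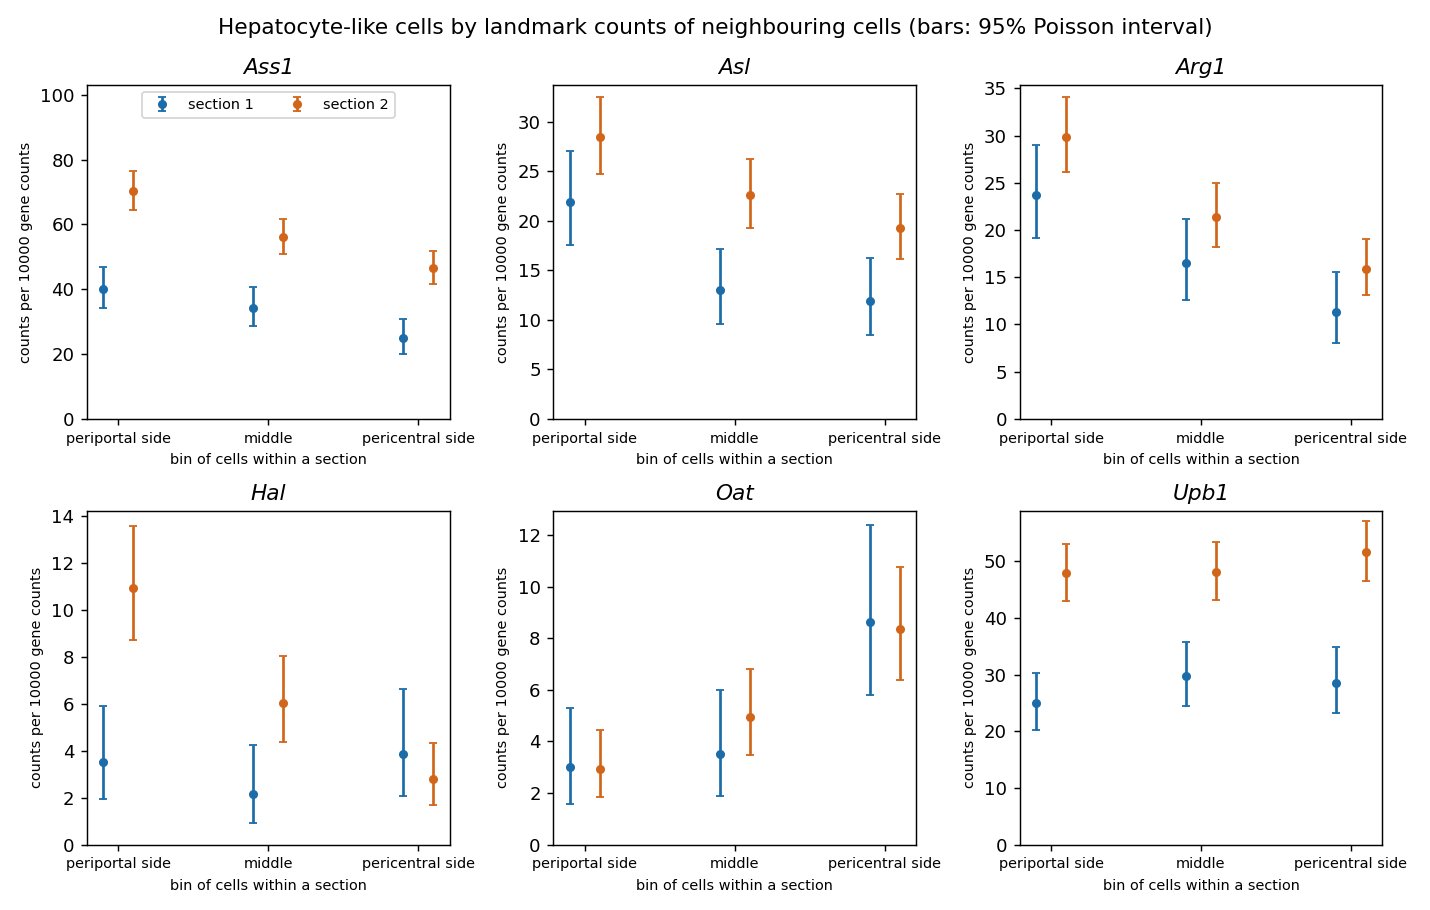
Levels of the 6 genes (counts per 10000 gene counts, linear axis from 0) in hepatocyte-like cells of the periportal, middle and pericentral bin by the landmark counts of their neighbours, one point per section with its exact 95% Poisson interval. Arg1 and Ass1 were lower in each step in both sections and Oat was highest on the pericentral side in both, while the outer intervals of Hal are apart in section 2 and overlap in section 1, on 14 and 13 counts.

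Background measures were also taken by bin. Blank barcodes stood at 76.6, 88.6 and 90.5 per 10000 in section 1 and at 24.4, 21.9 and 22.6 in section 2, and markers of other cell types at 213, 224 and 259 and at 159, 176 and 166. The Glul level rose from 42.6 to 114 in section 1 and from 53.5 to 138 in section 2 between the outer bins, which describes the axis and tests nothing. The part of other cell types or false decoding in these changes was not tested. With a minimum of 20 counts per cell, or without section as a block, none of the 6 genes was called. DESeq2 called only Ass1 and Arg1, and Glul counts of the neighbours alone gave calls for Arg1 (-0.67) and Oat (0.91).

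**Figure D4:**
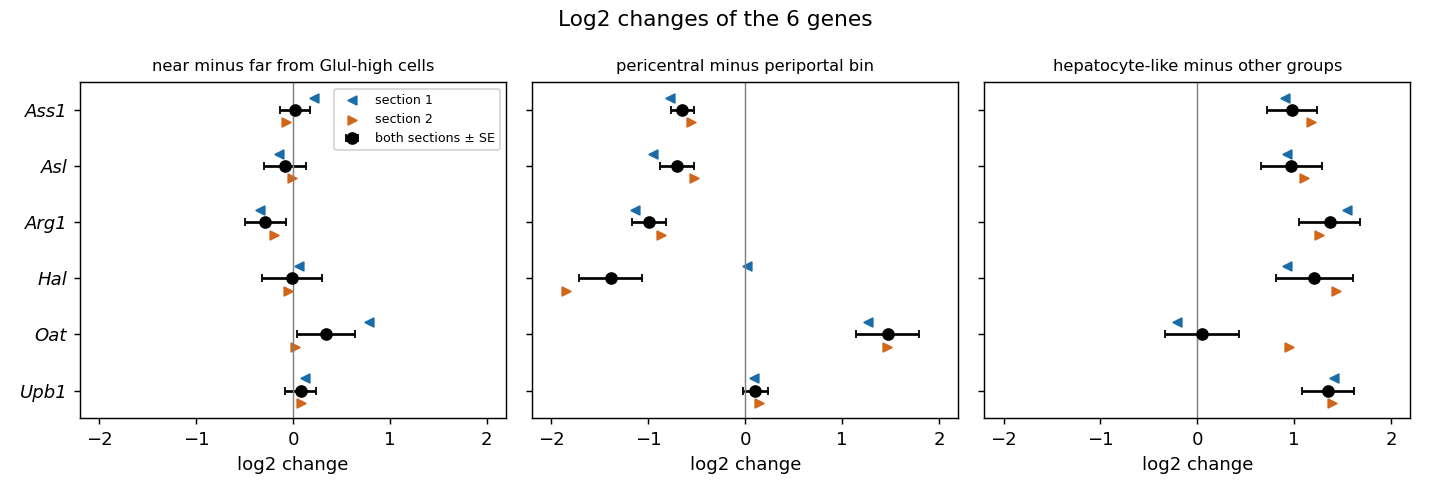
Log2 changes of the 6 genes in 3 comparisons, with black points for both sections together ± SE from edgeR's fit and triangles for section 1 and section 2 alone, which have no test. No gene was called by distance from Glul-high cells, and Hal in the middle panel was at 0.02 in section 1 and -1.85 in section 2.

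Over tiles of 250 µm, counts of hepatocyte-like cells were compared with the evenness of random scatter by a dispersion index, the ratio of variance to the value that counting error gives. In section 2 Ass1 had an index of 1.64 and Arg1 of 1.59, above 86.4% and 85.3% of 177 genes, and Upb1 had 1.08, above 29.9%. In section 1 Ass1 had 1.33 and Arg1 1.18, above the value of counting error but below the median gene at 1.36. Both thus ranked above the median gene in section 2 only. Ass1 had 562 counts in these tiles in section 1 and 1235 in section 2, and the index was not matched for counts. Glul, at 6.09 and 4.22, was above 98.2% and 98.9% of the genes compared.

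The genes with the most similar profile over 12 points (Glul-high cells and 5 distance bins in each of 2 sections, 88 genes eligible) were found by Pearson's r. For Arg1 they were Klf1, an erythroid transcription factor (r = 0.98), and Hp, which encodes haptoglobin (0.96), but without the Glul-high points, where Arg1 had 1 count, r was 0.75 and 0.67. Klf1 is an erythroid marker, and hepatocyte-like cells were required to hold under 2 counts of that list. Hp is a hepatocyte marker that helped to define these cells. How far these rules shaped the 2 profiles was not tested. For Oat they were Gulo (0.91) and Cyp2e1 (0.87), both pericentral genes, with 0.55 and 0.51 over the 10 points without Glul-high cells. For Ass1 they were Hsd17b13 (0.85), a periportal gene, and Prkcsh (0.84), with 0.58 and 0.68 over the 10 points. Asl (Fcgrt, 0.64, and Pkm, 0.61), Hal (Ube2c, 0.62, and Cd82, 0.62) and Upb1 (Efna1, 0.81, and Ctsb, 0.77) had r from 0.61 to 0.81, and from 0.39 to 0.71 over the 10 points. Points of 1 section share a library and its depth, so these are descriptions.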

How the data were processed

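The authors deposited raw counts of decoded transcripts per segmented cell and gene, with no normalization, and cell volumes, centres and transcript positions in a length unit that the file headers do not name and that was taken to be µm. Slices were imaged with Vizgen's MERFISH, per the labels' protocols, and the decoding and segmentation software is not given in the sources used here. A further total per cell in the deposited cell table did not equal the summed counts and was not used.

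The 6 genes, the lists and the comparisons were chosen with earlier results of these data known. The genes named are these 6, pathway and position genes of the panel, and the 2 nearest profiles of each gene. The marker minimum of 2 was set after marker and cell counts had been seen, and position from neighbours was added after the distance results had been seen. Landmark counts were compared as log2 of their ratio with 0.5 added to each.

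No doublet caller was run. Raw counts were added up by section and cell group or bin. Genes with at least 50 counts over all sums were tested in edgeR 4.0.16 (R 4.3.3; glmQLFit and glmQLFTest) with TMM scaling and section as a block, because bins and groups come from the same 2 sections. The neighbour fit had 6 sums and 2 residual degrees of freedom, the distance fits 8 and 3, and the group fit 14 and 6. Single-section values are log2 differences of CPM with a prior count of 2 and have no residual degrees of freedom. SEs are the log2 change over the root of the quasi-likelihood F. DESeq2 1.42.0 was an alternative. Levels and figures were made in Python 3.11.15. On simulated counts for the neighbour comparison (313 genes tested), the fit recovered 96.88% of genes with 200 or more counts changed by 1 on the log2 scale, 56% of those with 50 to 199, and called 0 of 191 unchanged genes. For the Glul distance (355 genes tested) these were 92.11%, 39.39% and 4 of 215. The simulated counts had a fixed dispersion that was not estimated from these data, and each change was the same in both sections. These rates therefore need not hold for the real counts, where a change can differ between the sections. Intervals cover counting error only.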

Additional observations from a re-analysis of the deposited data

How the results depend on the processing

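Depth, the number of sections and the scaling all limit these results, and their weight was not compared. Few cells were Glul-high or Cyp2f2-high, counts per cell were low, and Hal and Oat had under 200 counts in the hepatocyte-like cells of either section. With 2 sections, a value from 1 section has no test. A threshold of at least 5 Cyp2f2 counts was not run, since a section had no such cell.

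By distance from Glul-high cells, none of the 6 genes was called in any of the 15 alternative fits. The number of genes called in all, 3, went to 0 with Glul of at least 2 or 5, fixed bins, no filter or no replicate block. It went to 1 with a minimum of 20 counts, only hepatocyte-like Glul-high cells, thinned cells or DESeq2, to 7 with Glul-high cells that had another nearby, to 15 with all kept cells and to 12 with all decoded transcripts. Signs of uncalled values near 0 turned. Ass1 turned to -0.052 (Glul of at least 2), -0.068 (minimum of 20), -0.29 (fixed bins), -0.016 (minimum of 5), -0.0063 (thinned) and -0.050 (no TMM). Asl turned to 0.0745 (Glul of at least 2), 0.070 (hepatocyte-like Glul-high cells), 0.37 (Glul-high cells with another nearby) and 0.12 (volume as the offset). Hal turned to 0.0815 (minimum of 20), 0.021 (hepatocyte-like Glul-high cells), 0.26 (another nearby), 0.044 (thinned) and 0.18 (volume). Arg1 turned to 0.19 (another nearby) and Oat to -0.019 (Glul of at least 5).

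In Glul-high against far cells the 1 call, Arg1, went to 0 with Glul of at least 2 or 5, only hepatocyte-like Glul-high cells, Glul-high cells with another nearby, all kept cells, thinned cells, no TMM and DESeq2, and without the replicate block. With volume as the offset Arg1 was lost (-2.75) and Oat was called in its place. The genes called in all, 10, went to 0 with hepatocyte-like Glul-high cells, with another nearby and without the block, to 5 with no TMM, to 4 with DESeq2 and to 17 with all decoded transcripts. Asl turned to 0.12 (minimum of 20), 0.084 (all kept cells), 0.31 (no TMM), 0.69 (volume) and 0.14 (DESeq2), Upb1 to 0.012 (no TMM) and 0.39 (volume), and Ass1 to 0.16 (volume). The median of all genes tested shifted by 0.36 with no TMM and by 0.77 with volume.

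By distance from Cyp2f2-high cells, volume as the offset called 1 of the 6 genes, Ass1, and 21 genes in all, where the median of all genes tested shifted by 0.44. Cyp2f2 of at least 2 called 3 genes in all and a minimum of 20 counts 1, none of the 6. Arg1 turned to 0.29 (Cyp2f2 of at least 2), 0.053 (minimum of 20), 0.23 (fixed bins), 0.052 (no TMM) and 0.46 (volume). Hal turned to 0.51, 0.23, 1.38, 0.073 and 0.48 under the same settings. Oat turned to 0.23 and Upb1 to 0.24 with volume, and Asl to -0.081 without the replicate block.

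Between hepatocyte-like and other cells 5 genes were called. Volume as the offset left 2 (Arg1 and Upb1), with a shift of the median by -0.53, and no replicate block left 0 (92 genes in all went to 0). Hal was lost with 1 more marker count, no TMM (median shifted by -0.28) and DESeq2. Oat, never called, turned to -0.0415 (minimum of 20), -0.10 (1 more marker count), -0.015 (no near hepatocyte-like cell), -0.28 (no TMM), -0.50 (volume) and -0.047 (DESeq2).

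By landmark counts of neighbours, the 5 calls went to 0 with a minimum of 20 counts, 2 with Glul alone (Arg1, Oat), 2 with DESeq2 (Arg1, Ass1) and 0 without the replicate block. The genes called in all went from 36 to 4, 22, 9 and 0. A radius of 30 µm lost Asl, and a radius of 100 µm, no TMM, volume as the offset and no filter kept all 5. Volume shifted the median by -0.12 and turned Upb1 to -0.0041, and Hal ranged from -1.85 (without replicate 1) to 0.023 (without replicate 2). The causes of these changes were not tested, except that a block takes up the difference between sections by construction.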
